A study of Mus musculus with 24 samples.

Results

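The 3 lines of mouse small cell lung cancer called Type V, which stay viable when p53 is switched back on, were compared with and without p53 restoration while both arms carried cyclosporin A (CsA). The comparison takes 6 of the 24 libraries of the series, the Restored + CsA and the Control + CsA library of lines 4711-11, 4716-10 and 4716-14, chosen by their labels and paired by line. mRNA was sequenced from 6 lines, 3 of Type V and 3 of Type D, which die on restoration, each as Control, Control + CsA, Restored and Restored + CsA at 72 h. All lines came from individual tumors of mice on a mixed B6J/129S4vJae background that carried floxed Rb1 (flox/flox) and floxed Rbl2 (flox/flox), the switchable Trp53 allele XTR on both copies (XTR/XTR) and FlpO-ER at Rosa26, in which an adenovirus with a CMV-driven Cre deleted Rb1 and Rbl2 and set the Trp53 allele to its gene-trapped state (TR). Adding 4-hydroxytamoxifen (4-OHT) activates FlpO-ER, which cuts out the trap and returns Trp53 to expression (R). The Control arm keeps the trap. Because 4-OHT was given only with restoration, its own effect and that of p53 cannot be told apart in these libraries. There was 1 library per line and condition, so the replicate is the line.

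p53 is a transcription factor that binds DNA as a tetramer, at a pair of half-sites, and turns on genes for cell cycle arrest, cell death, DNA repair and metabolism as well as its own inhibitor Mdm2. It lowers cell cycle genes mainly indirectly: the inhibitor p21, encoded by Cdkn1a, keeps the RB family unphosphorylated, and the DREAM complex then holds down genes whose promoters carry a CHR element, often beside CCAAT boxes. RB and p130 (Rbl2) are members of that family, and both genes were targeted in these tumors. CsA binds cyclophilins, which are prolyl isomerases, and with cyclophilin A it blocks calcineurin, the phosphatase that activates NFAT factors.

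Levels are given as TPM, the share of all transcripts that a gene holds after correction for its length, for the lines in the order 4711-11, 4716-10 and 4716-14, and changes as Restored + CsA minus Control + CsA on the log2(TPM + 1) scale, which understates the change of genes with low values. A gene is called when its adjusted p from limma, with the line as a block and Benjamini-Hochberg adjustment over the 14104 genes tested, is under 0.05 and its change is at least 1 log2. The 6 libraries resembled each other in breadth: 12110 to 12589 genes reached 1 TPM, and the 10 most abundant genes took 4.50% to 6.67% of the total. The table holds no counts, so the depth of the libraries is unknown. In bulk RNA, fewer cells of a kind and less RNA per cell cannot be told apart.

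The state of p53 matched the labels in every line. Trp53 itself (chr11:69580359-69591873 in GRCm38, plus strand, protein coding) stood at 12.2, 15.3 and 13.5 TPM in Control + CsA and at 182, 208 and 215 TPM in Restored + CsA, 14.7 times the mean level, a change of 3.79 (SE 0.12, adjusted p = 8.0e-12). Cdkn1a, the p21 inhibitor of cyclin-dependent kinases (chr17:29090976-29100727, plus strand), went from 60.3, 41.9 and 92.0 TPM to 1575, 1146 and 1586 TPM, a change of 4.51 (SE 0.13, adjusted p = 7.8e-12). The groups were far apart for both genes, with the lowest restored library above the highest control library. Mdm2, the ubiquitin ligase that degrades p53 (chr10:117688875-117710758, minus strand), went from 75.9, 59.0 and 66.5 TPM to 715, 883 and 570.1 TPM, a change of 3.39 (SE 0.13, adjusted p = 1.2e-10). Rb1, whose floxed allele was deleted but which still gives reads, rose from 12.2, 13.3 and 16.2 TPM to 44.7, 44.9 and 57.1 TPM, while Rbl2 was at 10.5, 11.9 and 12.8 TPM and 17.6, 12.3 and 19.9 TPM, a change of 0.44 that was not called.

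Most defining neuroendocrine markers of small cell tumors were near 0 in these lines. Of 29 neuroendocrine and subtype genes listed, 17 passed the filter on low values, and Neurod1, Chga, Chgb, Calca and Dll3 stayed under 1 TPM in all 6 libraries. Uchl1, a neuroendocrine ubiquitin hydrolase, was present at 38.3, 19.4 and 20.5 TPM in the controls and fell to 8.33, 5.74 and 3.12 TPM, a change of -2.02 (SE 0.25, adjusted p = 1.9e-05). Among the rest of the list 2 genes rose, Hes6 by 1.78 and Notch1 by 2.36. Yap1, a marker of the subtype without neuroendocrine genes, was at 180.0, 542 and 119 TPM in the controls and did not pass the test (change -0.02).

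A total of 709 genes rose and 415 fell when p53 was restored under CsA, which is 5.03% and 2.94% of the 14104 genes tested. These shares are the background for the counts of rises and falls in every gene list of this comparison. With quantile normalization the split was 603 and 505, and with median-ratio scaling 660 and 434. The median change was 0.04 over all genes tested, 1.43 over the called rises and -1.45 over the called falls. The 1124 called genes are 7.97% of the genes tested. Of them, 1096 moved 1 way in every line and 802 had groups that did not overlap. Both were counted only among genes called on these same values. Their shares over all genes tested were not counted, so neither count can be read as a trait of the called genes. The called rises had a median of 1.54, 1.31 and 1.54 in the 3 lines and the called falls had medians between -1.67 and -1.42. The count rests on the pairing by line: without the line as a block 650 genes were called, all of them among the 1124.

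The 10 largest rises reached 4.43 to 6.06 log2. Atg9b, a lipid scramblase of autophagosome formation, went from 0.435, 1.05 and 3.56 TPM to 158, 65.5 and 375 TPM, a change of 6.06 (SE 0.33, adjusted p = 5.0e-09). Svop, a transporter-like protein of synaptic vesicles, was listed at 0, 0.128 and 0.171 TPM and then at 81.3, 48.0 and 93.5 TPM, a change of 6.05 (SE 0.22, adjusted p = 5.0e-11). Before restoration both were below 4 TPM in every line, and afterwards no line was near that level. The carboxylesterase Ces2e (change 5.58) and its neighbor Ces2g (4.51), the mitochondrial creatine kinase Ckmt1 (4.71), the exocytosis effector Sytl1 (4.63) and 1700007K13Rik (6.01) were the others of the 10 largest, with Gm15987 (4.43), Cdkn1a and the co-stimulatory ligand Cd80, which went from 0.818, 0.840 and 2.52 TPM to 45.5, 67.8 and 57.2 TPM. The 2 carboxylesterases are similar in sequence, so reads may be shared between them. Exons of Atg9b overlap those of Nos3 and exons of Svop those of Usp30 on the opposite strand. Reads may be shared there too if strand was not used in making the table.

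Of 100 p53 target genes listed in 6 roles, 97 were tested and 55 rose, with 1 fall and a median of 1.43 beside 0.04 over all genes. In the list of p53 feedback, 7 of 11 tested genes rose (median 1.87). Ccng1, the cyclin G1 gene that works with Mdm2, went from 141, 135 and 217 TPM to 1192, 895 and 1393 TPM, 7.07 times the mean level. Zmat3, an RNA-binding splicing regulator, went from 23.1, 21.2 and 25.5 TPM to 143, 104 and 123 TPM, a change of 2.35 (SE 0.11, adjusted p = 7.7e-10). Both had groups well apart in every line. Trp53inp1 rose by 2.92, Phlda3, an inhibitor of Akt, by 2.06, Mdm4, the second inhibitor of p53, by 1.87 and Ppp1r13l by 1.36. The fall was Trp63, a p53 paralog that marks basal cells, from 37.7, 11.7 and 3.48 TPM to 16.6, 4.34 and 1.73 TPM, a change of -1.03 (SE 0.14, adjusted p = 3.0e-05) with groups that overlapped. Without line 4711-11 or 4716-10 its change was -0.98 or -0.93, under the 1 log2 limit. Not called were Ppm1d, the phosphatase of the p53 loop (change 0.92), and the ubiquitin ligases Rchy1 (0.41) and Cop1 (-0.22).

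**Figure D1:**
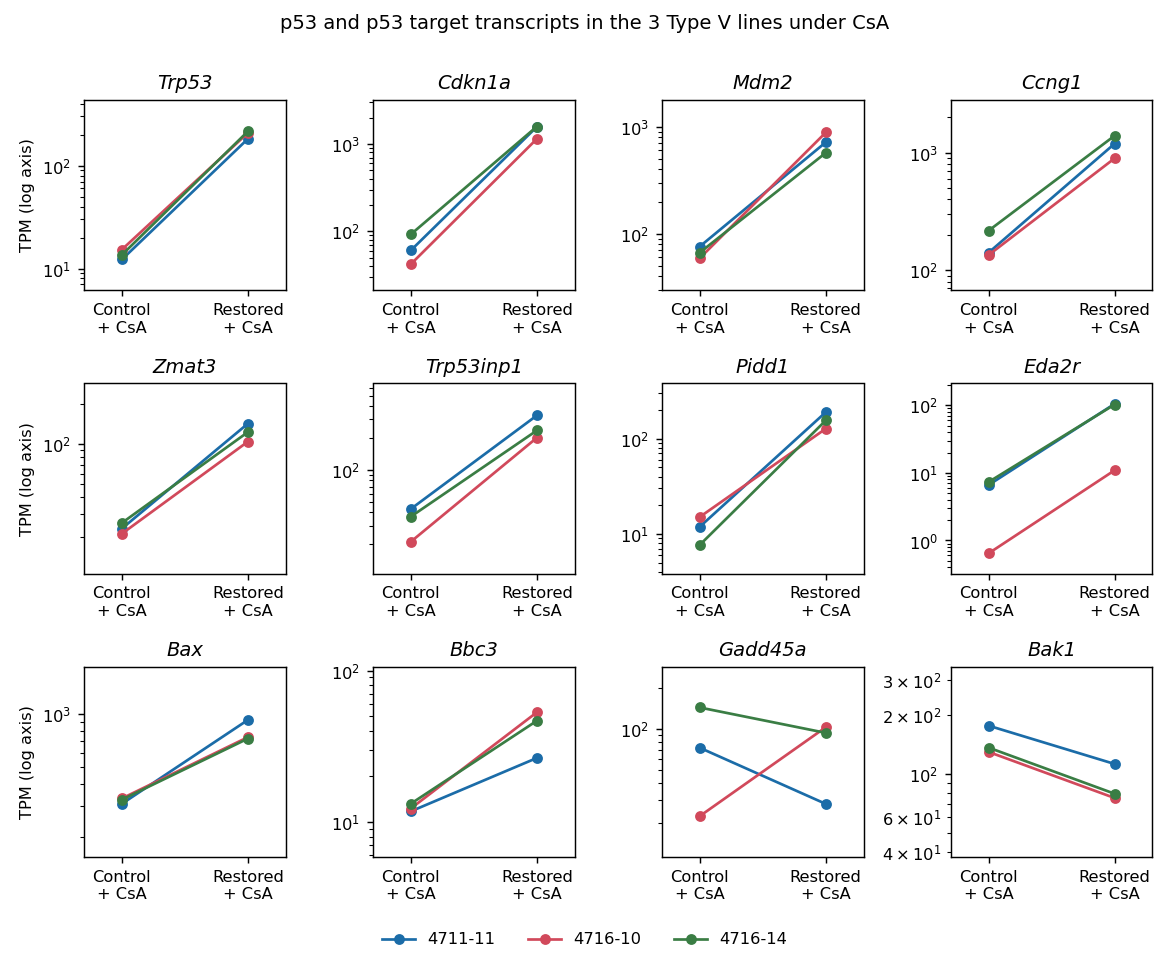
TPM on a log axis, scaled for each panel, of Trp53 and 11 p53 target genes in Control + CsA and Restored + CsA, with 1 line joining the 2 libraries of each of the 3 Type V cell lines. The first 10 panels rise in every line, Trp53 from 13.7 to 202 TPM in the mean, whereas Gadd45a moves in both directions and Bak1 is lower in all 3 lines.

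The arrest genes gave 8 rises among 14 tested and no fall (median 1.25). Beside Cdkn1a and Rb1, Btg2, an antiproliferative cofactor of mRNA decay, went from 7.36, 15.9 and 22.9 TPM to 199, 131 and 136 TPM, a change of 3.36 (SE 0.43, adjusted p = 2.3e-05), and the kinase gene Plk2 rose by 1.79. Ypel3 rose by 1.71 and Sfn, which encodes the 14-3-3 sigma protein, by 1.14, or 0.87 and not called without line 4716-10. Rprm was called at 2.24, with restored levels of 13.7, 0 and 11.7 TPM, so that line 4716-10 did not share its rise, and it was not called without line 4711-11 (1.57) or without line 4716-14 (1.69). Ptprv was called at 1.36 but lost the call without line 4716-10 (0.88) or line 4716-14 (1.34). Gadd45a, a classical stress target, stood at 72.4, 22.6 and 144 TPM in the controls and 27.9, 103 and 93.3 TPM in the restored libraries, higher in line 4716-10 and lower in the other two lines, and was not called (change 0.06 (95% interval -1.14 to 1.25), or -0.98 without line 4716-10). Gadd45g, its relative, had a change of 0.71 that also missed the 1 log2 limit.

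Of 20 death genes of the p53 program 13 rose and none fell in these lines (median 1.45). Pidd1, the death domain protein that activates caspase-2, went from 11.9, 15.0 and 7.65 TPM to 189, 127 and 155 TPM, a change of 3.69 (SE 0.18, adjusted p = 1.3e-09). Eda2r, a receptor of the TNF family, went from 6.62, 0.645 and 7.34 TPM to 106, 11.0 and 103 TPM, with line 4716-10 far below the others in both arms and yet a similar ratio. The death receptor Fas went from 6.11, 153 and 30.6 TPM to 109.6, 412 and 161 TPM, so that its groups overlapped although each line rose. Perp, a membrane protein of desmosomes, rose by 2.30 and Tnfrsf10b, the TRAIL receptor, by 1.43. Among the BCL2 family, Bax went from 310.4, 333 and 328 TPM to 927, 740.2 and 727 TPM, 2.47 times the mean level, while Bbc3 (PUMA) rose by 1.63 and Pmaip1 (NOXA) by 1.39. Apaf1, the core of the apoptosome, rose by 1.58. Bak1, the other effector of the family, was at 176, 129 and 136 TPM and then at 112, 75.1 and 79.0 TPM, a change of -0.73 (95% interval -0.91 to -0.55) that missed the 1 log2 limit but whose groups did not overlap.

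DNA repair showed the smallest median of the 6 roles, 0.84, with 5 rises among 13 tested genes. Polk, a translesion polymerase, went from 13.3, 9.59 and 11.0 TPM to 84.1, 62.6 and 71.7 TPM, a change of 2.58 (SE 0.15, adjusted p = 5.7e-09). Ercc5, the nuclease of nucleotide excision repair, rose by 2.42, the repair methyltransferase Mgmt by 2.32 and the polymerase Rev1 by 1.46. The damage sensors Xpc (change 0.46) and Ddb2 (0.69) and the polymerase Polh (-0.70) were not called.

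In metabolism and stress defence, 12 of 24 tested genes rose and none fell (median 1.26). Slc2a9, a urate transporter, was nearly silent at 0.176, 1.00 and 0.689 TPM and reached 11.9, 17.4 and 47.4 TPM, a change of 3.83 (SE 0.31, adjusted p = 2.2e-07). Dcxr, the xylulose reductase, went from 10.3, 44.3 and 17.3 TPM to 289, 278 and 295 TPM, so that lines which differed in the controls came to nearly 1 level after restoration. The adenylate kinase Ak1 rose by 3.15, the epoxide hydrolase Ephx1 by 2.82 and Sesn2, an inhibitor of mTORC1, by 2.42. Sesn1, its paralog and also a known p53 target, was not called, with a change of -0.70 (95% interval -1.03 to -0.38).

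Signals and surface proteins had the largest median, 2.36, with 10 rises among 15. Nectin4, an adhesion molecule, went from 0.0646, 0 and 0.0543 TPM to 29.5, 10.7 and 7.30 TPM, a change of 3.79 (SE 0.35, adjusted p = 8.9e-07). The kinase Dgka rose by 3.71, Crip2 by 3.60 and Gdf15, a stress cytokine, by 2.62. Gdf15 reached 13.8, 87.1 and 97.6 TPM from 3.80, 9.29 and 10.3 TPM, with line 4711-11 the lowest in both arms.

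To show an exact match to 2 p53 half-sites at Cdkn1a, a stretch around an annotated start of the gene is printed. It runs from 120 bases before to 30 after the start of the first of the gene's 2 RefSeq windows (chr17:29090859-29091008, GRCm38.p6, plus strand). Letters of the 2 matching half-sites are in capitals. They begin 73 bases before the start and are 12 bases apart. The search allowed no mismatch. The 10 bases directly after the second capital stretch differ from the half-site pattern only in their first letter, and so stay in lower case. Which of these stretches p53 uses was not tested. These libraries do not measure binding. A pair of half-sites with at most 13 bases between them was found in 0.074% of 27025 genes with a promoter window of 250 bases before to 50 after the start, in 0.0461% of the tested genes with one, and among the called genes in Cdkn1a alone. A single half-site was in 12.0% of the windows of 540 called rises and 8.37% of those of the tested genes.
Cdkn1a: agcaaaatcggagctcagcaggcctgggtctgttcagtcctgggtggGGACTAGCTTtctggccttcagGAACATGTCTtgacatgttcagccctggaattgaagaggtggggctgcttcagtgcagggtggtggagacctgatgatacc

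Genes of mitosis fell: 54 of 57 tested were called lower and none higher, with a median of -2.30 overall and -2.54, -2.35 and -2.12 in the 3 lines. Plk1, the kinase of mitotic entry and spindle assembly, went from 178, 134 and 87.2 TPM to 19.8, 14.3 and 9.91 TPM, a change of -3.09 (SE 0.28, adjusted p = 6.7e-07). Bub1b, a spindle checkpoint kinase, went from 123, 114 and 90.1 TPM to 13.3, 14.6 and 9.44 TPM, and Cdca8, a subunit of the chromosomal passenger complex, from 148, 110.2 and 73.3 TPM to 13.5, 17.2 and 7.86 TPM. Ccna2, cyclin A2, went from 232, 185 and 158 TPM to 26.8, 21.7 and 22.7 TPM, 8.07 times lower in the mean. For all of these genes the groups were far apart, and the highest restored level was below the lowest control level. Pimreg, Pclaf and Cdca3, all cell cycle genes, fell by 2.91, 2.91 and 2.88 on the log2 scale. The genes of the list that were not called were Spc25 (change -0.81), Hjurp (-0.34) and Pttg1 (-0.26).

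Of 42 replication genes tested, 8 fell and none rose, with a median of -0.39, and line 4716-10 differed from the others, with medians of -0.23, -0.98 and -0.09. Those named by size were E2f8, a repressive E2F factor (-1.81), Mcm10 (-1.55), E2f2 (-1.26, or -0.97 without line 4711-11) and Cdc45, a subunit of the replicative helicase (-1.23). None of the 6 genes of the MCM2 to MCM7 helicase was called (median -0.17). In the list of RB family, E2F and kinase genes, 6 of 28 fell and 2 rose, the rises being Rb1 and Cdkn1a. Mybl2, which activates mitotic genes with the MuvB core, fell by 2.04 on the log2 scale and Lin9, a MuvB subunit, by 1.01, or -0.88 without line 4711-11. E2f1 was not called (change 0.34).

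CHR elements were common in the windows of the falls. The motif, searched on both strands as TTTGAA and in its other common form, TTCGAA, was in 40.4% of the windows of 307 called falls, in 15.9% of those of the called rises and in 16.3% of those of the tested genes, and in 79.5% of the 44 called mitosis genes with a window. CCAAT, on either strand, was in 56.0%, 36.5%, 42.8% and 77.3% of the same windows. In the replication list the shares were 26.5% for the CHR and 61.8% for CCAAT. Outside the mitosis list, 33.8% of the windows of called falls held a CHR. The search found letters only, with no test and no measure of binding. Windows of 5 called mitosis genes that hold both motifs are printed from 120 bases before to 30 after the start in GRCm38.p6, with the CHR and the CCAAT boxes of either strand in capitals. A box on the other strand reads ATTGG here. They were chosen after their windows were seen, and in Cdca8 the CHR and a CCAAT box share a base. The genes are Ccnb2, cyclin B2 (change -2.80, chr9:70421525-70421674, minus strand), Cdk1, the mitotic kinase (-1.82, chr10:69352883-69353032, minus), Cdca8 (-3.01, chr4:124936888-124937037, minus), Cenpa, the centromeric histone (-2.73, chr5:30666766-30666915, plus), and Bub1, a checkpoint kinase (-2.82, chr2:127831830-127831979, minus).
Ccnb2: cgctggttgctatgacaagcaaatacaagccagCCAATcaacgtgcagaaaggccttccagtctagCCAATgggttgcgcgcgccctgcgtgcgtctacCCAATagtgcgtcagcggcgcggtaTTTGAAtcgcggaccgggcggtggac
Cdk1: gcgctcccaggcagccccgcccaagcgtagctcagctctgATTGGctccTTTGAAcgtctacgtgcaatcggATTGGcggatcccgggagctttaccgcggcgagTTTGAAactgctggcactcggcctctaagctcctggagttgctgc
Cdca8: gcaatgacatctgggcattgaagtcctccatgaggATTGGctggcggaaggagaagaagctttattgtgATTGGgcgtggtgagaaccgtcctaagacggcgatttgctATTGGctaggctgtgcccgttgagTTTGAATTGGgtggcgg
Cenpa: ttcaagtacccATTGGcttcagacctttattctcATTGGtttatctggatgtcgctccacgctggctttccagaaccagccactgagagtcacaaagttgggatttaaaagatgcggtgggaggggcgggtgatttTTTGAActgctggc
Bub1: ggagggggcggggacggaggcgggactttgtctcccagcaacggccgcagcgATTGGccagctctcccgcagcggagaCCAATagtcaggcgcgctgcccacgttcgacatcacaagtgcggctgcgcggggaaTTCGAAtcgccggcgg

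**Figure D2:**
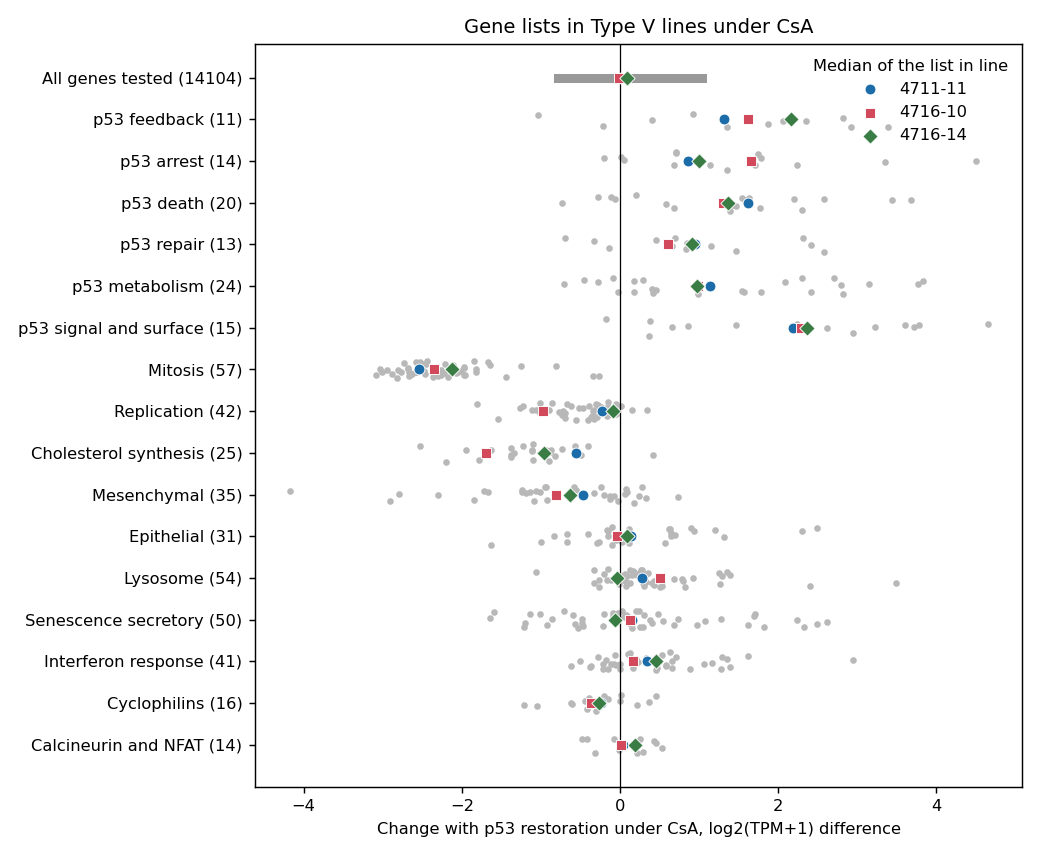
Change with restoration under CsA, as a log2(TPM + 1) difference, for 16 gene lists and all genes tested, with the number of tested genes in brackets. Grey points are single genes (the grey bar spans the 5th to 95th percentile of all genes, -0.78 to 1.03) and colored symbols the list's median in each line, which lies near -2.30 for mitosis and near 0 for calcineurin and NFAT.

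The study stained its lines for senescence-associated beta-galactosidase, and genes tied to senescence were examined. Of 12 core genes, 3 rose (Trp53, Cdkn1a and H2aj) and 4 fell. Trp53 is the gene that was restored and Cdkn1a was used above to check the labels, so neither rise is a separate sign of senescence. Of the core genes, 5 are in the study's module 3, which holds 53 of the 57 mitosis genes. Whether the falls stand apart from those of cell cycle genes was not tested. The list's median was -0.44 here and -0.51 in Type D under CsA, with no called difference. In Type D cells given CsA the study reported no significant beta-galactosidase activity. Lmnb1, the lamin whose loss marks senescent cells, fell from 190.3, 178 and 88.6 TPM to 45.9, 35.9 and 36.2 TPM, a change of -1.86 (SE 0.18, adjusted p = 1.5e-06). Hmgb1 and Hmgb2, chromatin proteins that also fall in senescence, changed by -1.11 and -1.83, and the histone variant gene H2aj by 1.31. Cdkn2a, which encodes p16 and ARF, fell from 633, 586 and 867 TPM to 434, 257 and 323 TPM, a change of -1.05 that was between -0.87 and -0.98 without line 4716-14 or 4716-10, under the limit. Glb1, the gene of the beta-galactosidase itself, was not called, at 69.1, 70.9 and 101 TPM and 77.3, 64.2 and 88.5 TPM (change -0.05 (95% interval -0.26 to 0.15)). Among 54 lysosomal genes 7 rose and 1 fell (median 0.25), led by the hyaluronidase Hyal1 (3.50), the cathepsin Ctsf (2.40) and the fucosidase Fuca1 (1.36). Of 50 secretory genes 9 rose and 6 fell (median 0.10). The protease inhibitor Serpine2 rose by 2.49, the growth factor Areg by 2.33 and the cytokine Lif by 2.24, beside Gdf15.

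Genes of the cholesterol list fell, 15 of 25, with no rise and a median of -1.11. The synthase Fdps went from 103, 251 and 152 TPM to 41.5, 28.4 and 31.8 TPM, a change of -2.20 (SE 0.38, adjusted p = 3.1e-04). The groups did not overlap, and each line was lower after restoration. Cyp51, an enzyme of the sterol steps, fell by 1.95 on the log2 scale. The list's median was -0.55, -1.70 and -0.96 in the 3 lines, with line 4716-10, which had the highest control levels of Fdps, lowest.

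Mesenchymal and matrix genes also fell, 13 of 35 with no rise (median -0.80). Mgp, a matrix protein that inhibits calcification (chr6:136872435-136875823, minus strand), showed the largest fall of all called genes, from 223, 315 and 339.7 TPM to 17.5, 15.4 and 12.4 TPM, a change of -4.18 (SE 0.24, adjusted p = 6.8e-09). The collagen genes Col3a1 (-2.91) and Col1a2 (-2.79) and the matricellular Postn (-2.30) followed, and Capn6, a calpain without protease activity, fell from 19.2, 8.58 and 148 TPM to 0.466, 0.6 and 18.4 TPM. Levels of the collagens differed widely between lines, Col3a1 from 46.3, 9.19 and 23.8 TPM to 14.4, 0.415 and 0.276 TPM, so the groups overlapped. Fibroblast markers moved with these genes: of 12 listed, 7 were tested and 5 fell (Pdgfrb, Dcn, Col1a1, Col1a2 and Col3a1), the collagens being in both lists. The summed level of the 12 was 434 to 998 TPM in the controls and 488 to 718 TPM in the restored libraries. Lum, Thy1 and Fap were under 1 TPM in all of these libraries, whereas Gsn, which many cell types express, held most of the restored sum at 380.1, 437 and 642 TPM. Dcn changed by -1.13, or -0.63 without line 4716-14. The part of other cells in the result was not tested. Markers of immune cells (5 of 16 tested, 1 called, Cd68, which is also lysosomal) summed to 9.17 to 12.1 TPM and 22.1 to 31.7 TPM, with Ptprc under 1 TPM, and those of endothelium (0 of 10 tested) to at most 1.44 TPM. Of 12 markers of lung epithelium 7 were tested and Trp63 alone was called. Their sums were 215 to 587 TPM and 112 to 605 TPM.

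In the epithelial list 4 of 31 rose (12.9%) and 1 fell (3.23%), the latter near the 2.94% of all genes tested. The rises included the protease St14 (2.49), Perp and Grhl1 (1.31). The fall was the claudin Cldn2 (-1.63, adjusted p = 0.063 by limma without line 4716-10). Of 41 interferon response genes 8 rose and none fell (median 0.33), led by the peptide transporter Tap1 (2.95), Trafd1 (1.62), Pml (1.39) and Nlrc5 (1.36), of which Tap1 and Pml are known p53 targets. Of 35 genes of the unfolded protein and integrated stress responses 3 rose and 2 fell, or 8.57% and 5.71% beside 5.03% and 2.94% of all genes tested, among them Sesn2, the stress factor Ddit3 (1.49) and Chac1 (1.12) against the serine synthesis enzyme Psat1 (-1.39). The call of Ddit3 was lost without line 4716-10 (0.79), and so was that of Chac1 (0.50), which was also lost without line 4716-14 (1.25).

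The targets of CsA themselves were measured. Of 16 cyclophilin genes tested, 2 fell (12.5%, beside 2.94% of all genes tested) and none rose (median -0.28). Ppih, a cyclophilin of the spliceosome, fell by 1.21 and the secretory Ppic by 1.04 on the log2 scale. The change of Ppic was -0.89 without line 4716-10 and -0.99 without line 4716-14. Ppia, cyclophilin A, was at 831, 903 and 1084 TPM and then at 693, 568 and 861 TPM, a change of -0.42 (95% interval -0.62 to -0.22) that missed the 1 log2 limit. Ppif, the mitochondrial cyclophilin D, had a change of -0.39 (95% interval -0.71 to -0.08) and Ppie, cyclophilin E, one of -0.26 (95% interval -0.41 to -0.11), and neither was called. Of 14 calcineurin and NFAT genes none was called by limma. Rcan1, a feedback inhibitor that NFAT induces, had a change of 0.53 and Nfatc1 one of 0.43. Of 7 efflux transporters tested, 4 rose: Abcb1b, a P-glycoprotein gene whose protein exports CsA, from 27.6, 19.4 and 30.8 TPM to 162, 93.3 and 134 TPM (change 2.27 (SE 0.21, adjusted p = 1.1e-06)), Abcc4 (1.65), Abcc5 (1.22) and Abcb1a (1.00), the last just at the limit and lost with median-ratio scaling (0.97), with quantile normalization (0.89), without line 4716-14 (0.70) and without line 4716-10 (1.01). Abcb1a and Abcb1b are close paralogs, so reads may be split between them.

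Whether CsA altered the response to restoration in these lines was tested as the difference between the change under CsA and the change without it in the same 3 lines. By limma 0 of 14104 genes were called (0.0%), and 191 had an unadjusted p under 0.05, where 5% of the genes tested is 705. The spread in the fit holds differences between lines in their response to restoration, which cancel in this difference within lines. The test may therefore be insensitive, and the count of 0 does not show that CsA had no effect. Without line 4716-14, 2 microRNA genes were called, Mir1900 (1.76) and Mir6959 (2.09). For 60.4% of the 1124 called genes the 95% interval of the difference lay within 1 log2 of 0, as it did for 84.6% of all genes tested, and for the others it reached beyond. The difference was -0.29 (95% interval -0.69 to 0.11) for Cdkn1a, 0.04 (95% interval -0.36 to 0.43) for Mdm2 and -0.06 (95% interval -0.41 to 0.29) for Trp53. For Mgp it was -0.10 (95% interval -0.82 to 0.63), for Cdca8 -0.56 (95% interval -1.09 to -0.03) and for Dcn -1.21 (95% interval -2.04 to -0.38). Without CsA, restoration raised 809 genes (5.74%) and lowered 413 (2.93%). Of the 709 rises under CsA 608 were also called without it, which is 85.8% of the former and 75.2% of the latter, and of the 415 falls 330 were, 79.5% and 79.9%. No gene was called in opposite directions. Across the genes tested the changes with and without CsA had a Pearson r of 0.922, a description over libraries of the same lines in which genes are not independent. Mitosis genes had a median of -2.30 with CsA and -1.98 without it, and the 6 p53 roles together 1.43 and 1.53.

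**Figure D3:**
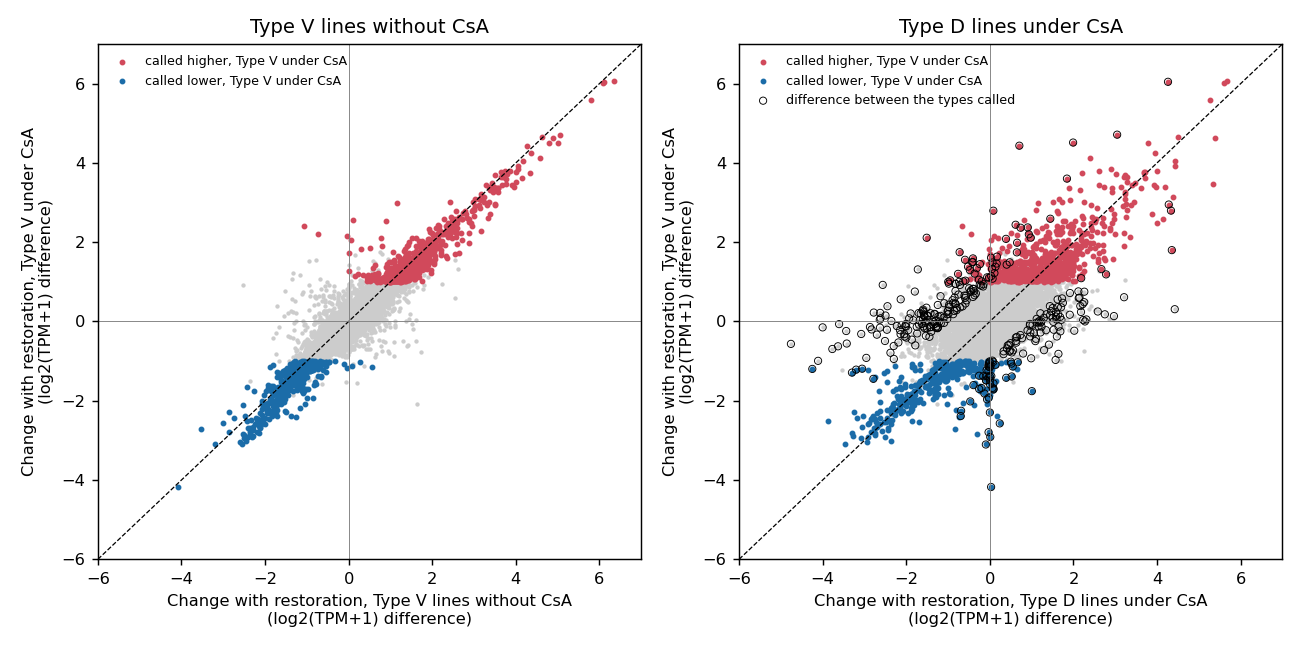
Change with restoration in Type V lines under CsA (vertical axis) against the change in Type V lines without CsA (left) and in Type D lines under CsA (right), both as log2(TPM + 1) differences, with 1 point per gene and a dashed line of equal change. Red and blue points are the 709 rises and 415 falls of the Type V lines under CsA, which lie along the dashed line on the left, and on the right open circles mark the 327 genes whose change differed between the types.

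The Type D lines 4711-1, 4711-18 and 4716-11, with CsA and restoration for the same time, gave a comparison at matched treatment. In them 833 genes rose (5.91%) and 533 fell (3.78%) under CsA, a split of the calls that moved to 665 and 640 with median-ratio scaling and to 639 and 647 with quantile normalization. Rises shared with Type V numbered 445 (62.8% of the Type V rises and 53.4% of those of Type D) and falls 232 (55.9% and 43.5%). The change differed between the types for 327 genes, 189 with a more positive change in Type V (1.34% of genes tested) and 138 with a more negative one (0.978%), or 220 and 99 with median-ratio scaling. That count depended on the fit: 70 of the 327 were called when only the 12 libraries compared entered it and 2 without the line as a block, and it ranged from 185 to 377 when 1 line was left out. Type and line cannot be separated further, since each type is 3 lines and the lines of a type are its replicates.

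Of the 97 tested p53 genes, 2 had a more positive and 3 a more negative change in Type V, where the shares over all genes were 1.34% and 0.978%. Ddit4 (difference 1.70) and Crip2 (1.76) were on the positive side, and Tap1 (-1.33) was among those on the negative side. Cdkn1a differed by 0.73 (95% interval 0.33 to 1.13), Mdm2 by -0.59 (95% interval -0.98 to -0.20) and Bax by 0.12 (95% interval -0.15 to 0.39), and none was called. No gene of the mitosis list was called either, with a median change of -2.30 in Type V and -2.34 in Type D. For cholesterol synthesis the medians were -1.11 and -1.17, again with no called difference.

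In the mesenchymal list 12 of 35 genes had a more negative change in Type V. Of the 35, 13 were under 1 TPM in all 6 Type D libraries with CsA, 6 of the 12 among them, and for such genes the difference restates the fall in Type V. The other 6 were Fn1, Snai2, Col5a1, Loxl2, Foxc1 and Mmp14, named after their values were seen. The list shares 10 genes with the study's Type V signature, chosen on lines of this study, so its direction is not independent evidence. Mgp led with a difference of -4.21 (SE 0.34, adjusted p = 2.7e-05), and Capn6 (-3.01) and Col3a1 (-2.92) were among the 5 largest. These 3 genes were under 0.4 TPM in those Type D libraries. Mmp10, a matrix metalloprotease, had a change of 0.31 in Type V, not called, and went from 3.63, 0.331 and 3.68 TPM to 82.3, 32.1 and 102 TPM in the Type D lines in the order above (difference -4.11 (SE 0.68, adjusted p = 0.004)). Tnc, a matrix glycoprotein, was at 1.51, 0.275 and 1.97 TPM and 11.2, 13.5 and 24.8 TPM in Type D and had a change of 0.14 in Type V, not called (difference -2.83 (SE 0.77, adjusted p = 0.047)). The call of the difference was lost for Tnc without any line but 4711-11 and for Col3a1 without any Type D line, with values down to -3.18 and -2.95. The Tnc difference was smallest without line 4716-10 (adjusted p = 0.083 by limma). Its call was also lost with median-ratio scaling, quantile normalization, no filter and the compared libraries alone (adjusted p = 0.054 to 0.13), and that of Col3a1 with the compared libraries alone (0.086).

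On the more positive side were Cxcl5, Saa3 and Lcn2, secreted proteins of acute inflammation. Cxcl5 stood at 0, 2655 and 47.9 TPM and 0.873, 2777 and 6.69 TPM in the Type V lines, so that 1 line held nearly all of it in both arms, and at 1040.2, 362 and 852 TPM and 21.8, 12.3 and 52.3 TPM in the Type D lines, where every line was lower after restoration (difference 4.19 (SE 1.07, adjusted p = 0.034)). Lcn2 had the same shape, with 0, 1303 and 0.896 TPM and 0, 1654 and 0.300 TPM in Type V and 77.2, 296 and 391 TPM and 10.5, 9.65 and 40.1 TPM in Type D (difference 3.54 (SE 0.80, adjusted p = 0.019)). Saa3 differed by 3.85 and was above 1 TPM in Type V in line 4716-10 alone. The call was lost for Cxcl5 (3.46 to 4.57) without any line but 4716-14, for Saa3 (3.18 to 4.20) without line 4711-11 or any Type D line, and for Lcn2 (2.94 to 3.72) without line 4711-11, 4711-18 or 4716-11. That of Cxcl5 was also lost with quantile normalization, no filter, a pseudocount of 0.1 and the compared libraries alone (adjusted p = 0.051 to 0.084 by limma), and that of Lcn2 with a pseudocount of 0.1 (0.099). Gm15987 differed by 3.73, as its rise in Type V had a counterpart of 0.71 in Type D. Cyp2s1, a cytochrome P450, moved in opposite called directions, from 1.04, 25.5 and 2.47 TPM to 7.96, 87.9 and 18.0 TPM in Type V and from 117, 245 and 214 TPM to 34.8, 89.7 and 81.7 TPM in Type D (difference 3.62 (SE 0.47, adjusted p = 7.5e-04)). Lmcd1, a LIM domain protein named here after its values were seen, was the other such gene, with -1.76 in Type V and 1.00 in Type D.

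**Figure D4:**
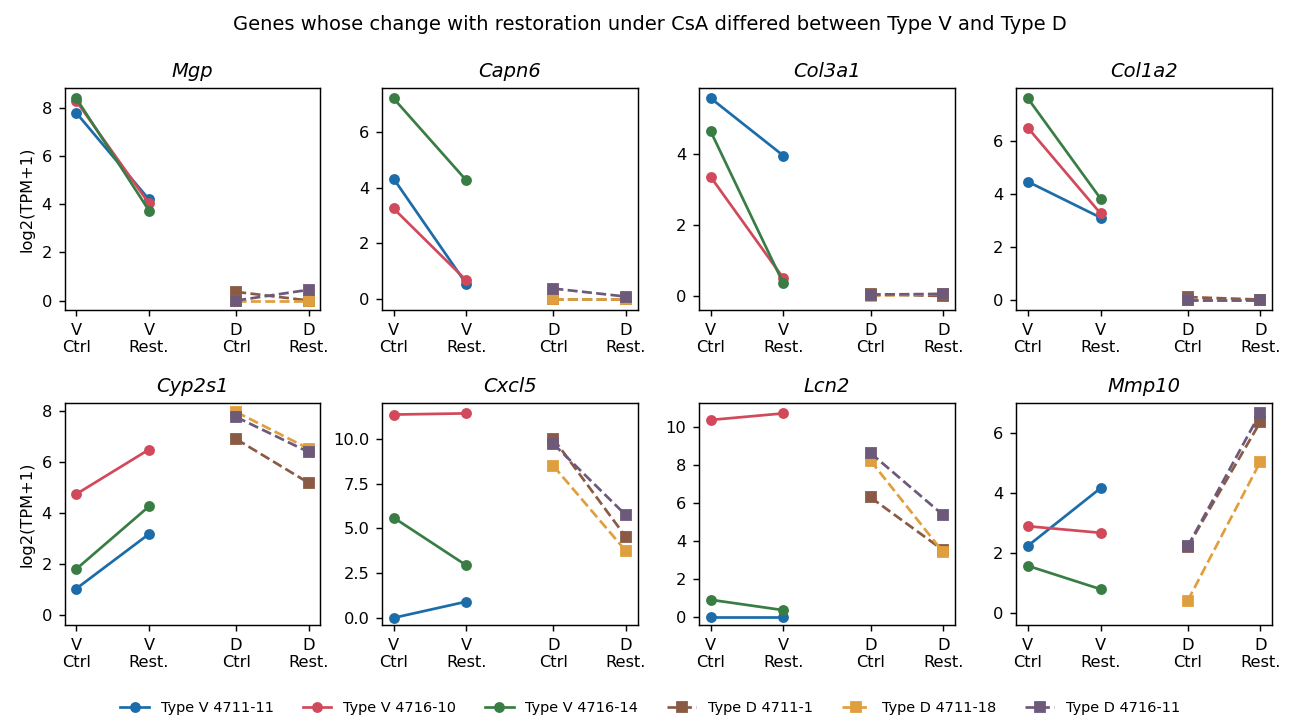
Levels as log2(TPM + 1), on an axis scaled for each panel, of 8 genes whose change with restoration under CsA differed between the types, in Control + CsA (Ctrl) and Restored + CsA (Rest.) libraries of the 3 Type V lines (circles) and the 3 Type D lines (squares). Mgp, Capn6, Col3a1 and Col1a2 fall in Type V and are near 0 in Type D, Cyp2s1 moves in opposite directions, Cxcl5 and Lcn2 are lower after restoration in Type D, and Mmp10 is higher there.

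The gene modules that the study derived from these lines without CsA were also read in the CsA libraries. They were chosen on the Control and Restored libraries of the same lines, so their direction here is not independent evidence. Of the 247 tested genes of module 1, 196 rose (median 1.55), and of the 231 of module 3, which holds 53 of the 57 mitosis genes, 166 fell (median -1.51). Module 2 had 27 falls among 56 tested genes. The median change in Type V and in Type D was -0.57 and -1.33 in module 4, 0.88 and 1.36 in module 5, and 0.89 and 1.22 in module 6. For module 4, 25 of 76 genes had a called difference between the types, all more positive in Type V, for module 5, 8 of 101, all more negative, and for module 6, 6 of 76, all more negative. Of the study's signature genes, 3 of 54 of the Type V signature rose (5.56%) and 8 fell (14.8%). In the Type D signature, 11 of 107 rose (10.3%) and 4 fell (3.74%). Over all genes tested the shares were 5.03% and 2.94%, near those of the Type V signature's rises and the Type D signature's falls.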

How the data were processed

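mRNA was sequenced in 24 libraries of 6 lines, and the 6 Type V libraries with CsA carry the main comparison. The authors deposited 1 table of TPM values per gene, used as deposited. Their methods name kallisto or HISAT2 and both mm10 and GRCm39, so the tool and build behind the table are uncertain. TPM sums to the same total in every library, so values are shares of a fixed sum, and depth is unknown. The study made the libraries with a stranded mRNA kit, but whether strand was used in making the table is not given. Exons of several named genes overlap those of another gene. Among them are Rb1, Tap1, Ckmt1, Cdca8, Ccna2 and Uchl1 on the opposite strand and Hyal1 on the same strand.

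The 14104 of 25239 genes that reached 1 TPM in 3 or more libraries were analysed as log2(TPM + 1) with limma 3.58.1 in R 4.3.3 (trend), over all 24 libraries, with the line as a block and treatment within type, and Benjamini-Hochberg adjustment over all genes tested. Tests were two-sided. Lines pair the libraries, since same-line libraries come from 1 cell line. Deviations of the 3 same-line pairs from their group means correlated at 0.758 to 0.820, those of different lines at -0.708 to -0.258. Values below 0 follow for different lines from centering each group of 3 libraries on its own mean. The p-values rest on 3 lines a type, but the spread was pooled within lines over all 24 libraries (12 residual degrees of freedom). That pool includes libraries of the same lines without CsA, so it is not the spread of the response between the 3 lines. With the compared libraries alone, 835 genes were called in place of 1124, and 70 in place of 327 for Type V minus Type D. Other settings tried were quantile and median-ratio scaling, a minimum of 5 TPM, no filter, a pseudocount of 0.1, no block, the compared libraries alone, and leaving out each line. Named genes were Trp53, Cdkn1a and Mdm2, Rb1 and Rbl2, the 10 largest called rises and falls with 1 direction in all lines, up to 4 such genes per list (and any member of lists of up to 20 genes), and the 5 largest called differences each way between types. Some others, such as uncalled members of longer lists and the genes whose promoters are printed, were named after their values were seen, and a few genes that the rule takes are not reported here. Members and lists were chosen with earlier results of these data known. Promoter windows came from RefSeq (GRCm38.p6) by symbol and matched 10851 of the 14104 genes, and gene positions from GENCODE M21 (GRCm38). Plots used Python 3.11.15 and matplotlib 3.10.9. The fit was also run on simulated data with independent noise in each library. Those data held no difference between lines in their response, so they do not check the p-values for it.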

Additional observations from a re-analysis of the deposited data

Results flagged for a closer look

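The change with restoration under CsA differed between Type V and Type D, by limma's test of the difference itself, for 327 genes. Among the genes named, the change was more positive in Type V for Cxcl5 (4.19), Saa3 (3.85), Gm15987 (3.73), Cyp2s1 (3.62), Lcn2 (3.54), Ces2g (2.52), Svop (1.78), Crip2 (1.76), Ddit4 (1.70), Ckmt1 (1.67), Abcc3 (1.14) and Abcc5 (1.11), all as log2 differences. It was more negative for Mgp (-4.21), Mmp10 (-4.11), Capn6 (-3.01), Col3a1 (-2.92), Tnc (-2.83), Col1a2 (-2.76), Lmcd1 (-2.76), Postn (-2.30), Pdgfrb (-1.79), Uchl1 (-1.55) and Tap1 (-1.33). Mgp, Capn6, Col3a1, Col1a2, Postn and Pdgfrb were under 0.4 TPM in all Type D libraries with CsA. The part of any cause in these differences was not tested.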

How the results depend on the processing

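Of 1124 genes called in Type V under CsA, 650 were called without the replicate block (401 higher, 249 lower), 835 with the compared libraries alone, and 1578 with a pseudocount of 0.1 (1033 higher, 545 lower). Leaving out 1 Type V line gave 1100 to 1191 calls. For the interaction with CsA the count of 0 became 0 to 2 when 1 line was left out. For Type V minus Type D, 327 became 2 without the replicate block (1 higher, 1 lower), 70 with the compared libraries alone, and 185 to 377 when 1 line was left out. The cause was not tested. Leaving out 1 line moved Gadd45a from -0.98 to 0.76 and Glb1 from -0.16 to 0.010, so that both changed sign. Of 142 named genes, 28 lost the call without the block, among them Fas, Mgmt, Gdf15, Serpine2, Notch1, Col1a1, Pdgfrb, Postn and Capn6, and 10 lost it with the compared libraries alone. Depth limits low genes by an unknown amount.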
